A study of Mus musculus with 12 samples.

Results

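The genes of the Notch signalling pathway examined here were 10: the receptors Notch1, Notch2, Notch3 and Notch4, the ligands Dll1, Dll4 and Jag1, the target genes Hes1 and Dtx1, and Rbpj, which encodes the DNA-binding effector. A peak belonged to a gene when the HOMER annotation of the master peak-list gave that gene as its nearest promoter. By this rule 75 of the 84243 peaks in the list belonged to the 10 genes. The list came from ATAC-seq, in which a transposase inserts sequencing adapters into exposed DNA, on 12 samples from wild-type C57BL/6 mice aged 8 to 12 weeks. There were 2 replicates of each of 6 sorted cell types: hematopoietic stem cells (HSCs), megakaryocyte progenitors (MkPs), erythroid progenitors (EPs), granulocyte/macrophages (GMs), B cells and T cells. The labels name thymus as the source of the T cells and bone marrow as that of the others. No animal carried an engineered allele or received a treatment according to the labels, and each cell type was defined by the surface markers used for sorting.

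The list was pooled over all 12 samples. It holds 0 columns of values per sample and does not record the cell type in which a peak was called. Depth is unknown, no value has an error between replicates, and the labelled cell types could not be checked against their marker genes. The values below therefore say where accessible DNA was listed around each gene in at least some of these cells, and no test between cell types was possible. Genes are not replicates, and differences between receptors, ligands and targets are given as counts that were not tested.

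Notch receptors are transmembrane proteins that are cleaved when a ligand of the Delta-like or Jagged family on a neighbouring cell binds them. The released intracellular domain enters the nucleus, joins RBPJ and a Mastermind coactivator on DNA, and switches on targets such as Hes1, a transcriptional repressor, and Dtx1, a Deltex family ubiquitin ligase. In blood formation, Notch1 is known for T cell commitment in the thymus, where Dll4 is the main ligand, and Notch2 for the formation of marginal zone B cells.

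Of the 75 peaks, 7 were promoter peaks, centred no more than 500 bp from a transcription start site (TSS), and 68 were distal, a word used here for every non-promoter peak. Promoter peaks made up 9.33% of the peaks of these genes and 15.6% of the whole list. The 7 promoter peaks belonged to 7 different genes: Notch1, Notch2, Dll1, Dll4, Hes1, Dtx1 and Rbpj. Notch3, Notch4 and Jag1 had none. Over 21774 protein-coding RefSeq genes, 52.9% had at least 1 promoter peak. Each of the 10 genes had at least 2 distal peaks, as did 45.5% of all protein-coding genes. At least 1 distal peak was found for 63.3% of protein-coding genes, and 25.5% had no peak of either kind.

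The counts per gene were uneven. Notch2 held 23 of the 68 distal peaks and Rbpj 15, Hes1 and Dtx1 held 8 each, and the other 6 genes held 2 or 3. The median over all protein-coding genes was 1 distal peak and the 90th percentile was 7. The 4 genes with 8 or more compare with 9.75% of all genes that had as many. Only 0.873% of genes had 23 or more distal peaks and 2.65% had 15 or more. By this rule 45.5% of genes had at least the 2 distal peaks of Notch1, a count that rose to 7 by gene body and to 17 by regulatory domain, as described below.

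**Figure D1:**
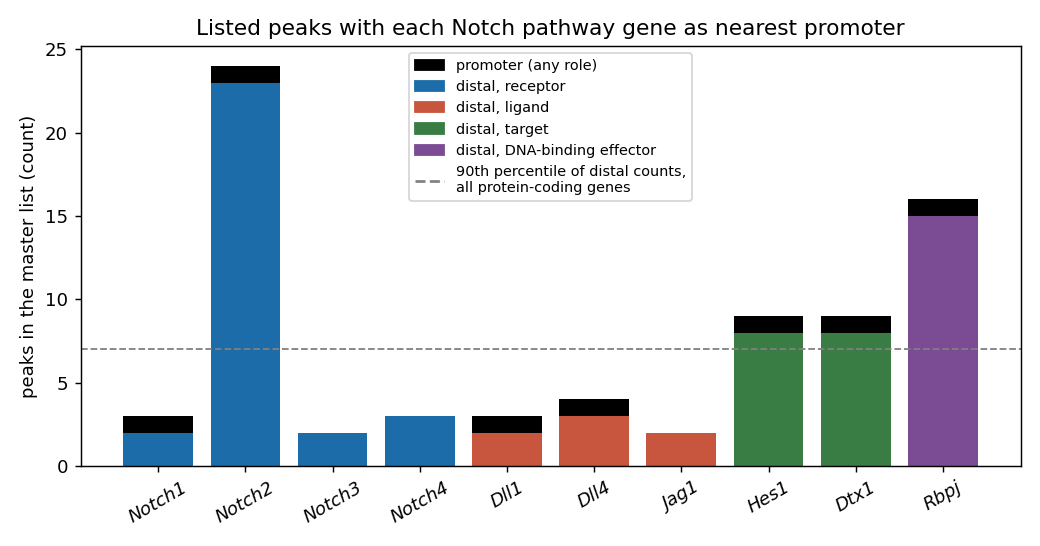
Bars show the number of listed peaks (vertical axis, count) for each Notch pathway gene, with distal peaks coloured by role and promoter peaks in black on top. The dashed line is the 90th percentile of distal counts over all protein-coding genes, at 7; Notch2, Rbpj, Hes1 and Dtx1 lie above it with 23, 15, 8 and 8 distal peaks.

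By role, the 4 receptors had 2 promoter and 30 distal peaks, the 3 ligands 2 and 7, the 2 targets 2 and 16, and Rbpj 1 and 15. The distal counts ran from 2 to 23 among the receptors, from 2 to 3 among the ligands, and were 8 for both targets. All 7 distal peaks of the ligands lay within 5 kb of a TSS, at a median distance of 1396 bp. Only 4 of the 30 receptor peaks and 5 of the 16 target peaks lay that close, with medians of 19037 and 16080 bp. The receptor values mostly reflect Notch2, which gave 23 of the 30 peaks, at a median of 22802 bp. The medians of Notch1, Notch3 and Notch4 were 5737.5, 13128.5 and 4232 bp. The median over all distal peaks of the list was 22261 bp. Rbpj alone among the 10 genes had distal peaks beyond 100 kb, and it had 3.

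**Figure D2:**
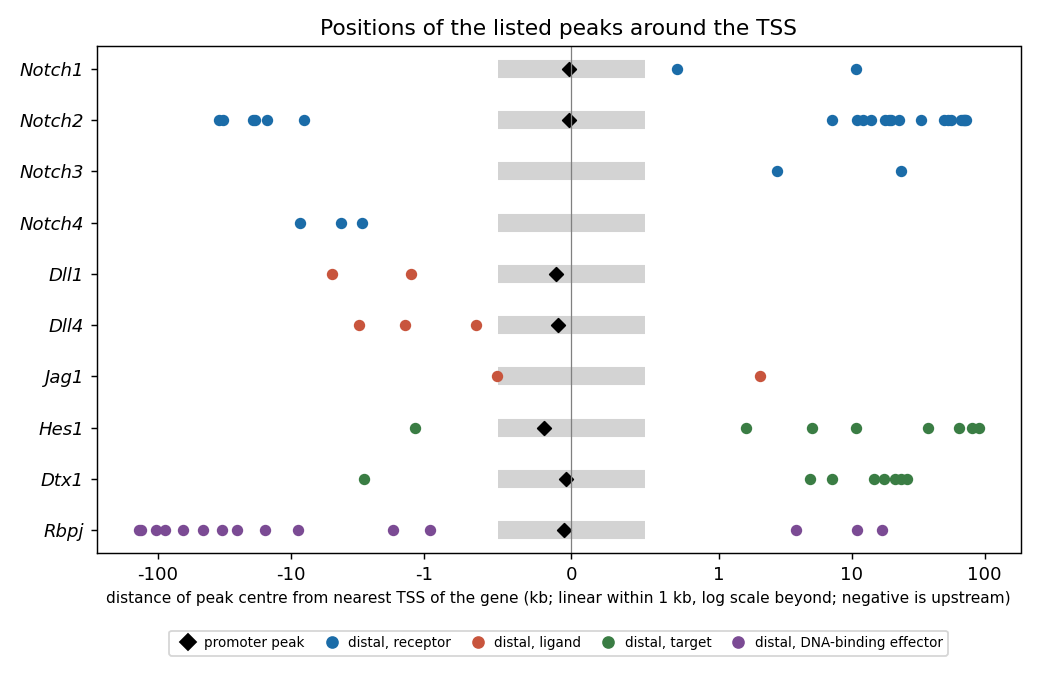
Each point is the centre of 1 listed peak, placed by its distance in kb from the nearest TSS of the gene (horizontal axis, linear within 1 kb and logarithmic beyond, negative upstream), with 1 line per gene. The grey band is the promoter definition of 500 bp on either side. It is empty for Notch3, Notch4 and Jag1, and the closest Jag1 peak lies at -505 bp. Peaks listed under ligands stay within 5 kb. Beyond 10 kb there are 21 peaks of Notch2, 11 of Rbpj, 5 each of Hes1 and Dtx1, and 1 each of Notch1 and Notch3.

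The receptors split into a pair with a promoter peak and a pair without. Notch1 and Notch2 had promoter peaks centred 14 and 19 bp upstream of the TSS. Notch3 and Notch4 had their nearest listed peaks 2790 bp downstream and 2902 bp upstream of the RefSeq Select TSS. The 250 bases upstream of each TSS are shown to compare the 4 receptor promoters, with each CG dinucleotide in capitals. They run 5′ to 3′ along the coding strand and are from the RefSeq annotation of GRCm38.p6 (mm10), at chr2:26503823-26504072 (minus strand) for Notch1, chr3:98013288-98013537 (plus) for Notch2, chr17:32166891-32167140 (minus) for Notch3 and chr17:34564045-34564294 (plus) for Notch4.
Notch1: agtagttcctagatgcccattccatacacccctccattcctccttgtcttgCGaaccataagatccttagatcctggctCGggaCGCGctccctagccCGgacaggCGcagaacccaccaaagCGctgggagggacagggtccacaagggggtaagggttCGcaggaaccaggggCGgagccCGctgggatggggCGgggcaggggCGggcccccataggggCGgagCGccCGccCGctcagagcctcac
Notch2: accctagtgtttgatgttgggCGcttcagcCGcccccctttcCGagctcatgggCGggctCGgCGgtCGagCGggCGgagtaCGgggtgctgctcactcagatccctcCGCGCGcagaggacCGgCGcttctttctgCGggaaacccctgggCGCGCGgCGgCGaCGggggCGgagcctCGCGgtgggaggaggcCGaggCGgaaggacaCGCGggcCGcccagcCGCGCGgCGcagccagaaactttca
Notch3: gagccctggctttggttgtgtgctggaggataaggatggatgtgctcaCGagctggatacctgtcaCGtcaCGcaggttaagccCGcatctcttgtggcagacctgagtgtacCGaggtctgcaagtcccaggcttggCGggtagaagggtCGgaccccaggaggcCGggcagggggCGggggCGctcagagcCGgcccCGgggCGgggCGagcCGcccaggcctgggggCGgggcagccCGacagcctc
Notch4: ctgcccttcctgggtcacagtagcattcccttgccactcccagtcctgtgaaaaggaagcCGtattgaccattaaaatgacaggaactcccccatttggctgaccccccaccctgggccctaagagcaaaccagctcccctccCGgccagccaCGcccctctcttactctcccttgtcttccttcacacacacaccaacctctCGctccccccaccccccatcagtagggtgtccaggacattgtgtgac

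The Notch2 stretch held 34 CG dinucleotides, the Notch3 stretch 17, the Notch1 stretch 16 and the Notch4 stretch 4. Over the RefSeq promoter window of 300 bases, which adds the 50 bases after the TSS, GC content was 73.0% for Notch2, 70.0% for Notch3, 68.3% for Notch1 and 58.3% for Notch4, beside a median of 52.7% over 32851 such windows. The Notch3 window had 25 CG dinucleotides and the Notch1 window 23, so these counts do not separate the promoter without a listed peak from the one with a peak. As many CG as in the Notch4 window, 5, were found in 62.0% of all windows, and as many as in the Notch2 window, 41, in 3.46%. A promoter peak was listed at the receptor window richest in CG and none at the poorest, with Notch1 and Notch3 close together between them. A relation between CG count and a listed promoter peak was not tested.

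Notch1 (chr2:26457902-26503822, minus strand, 45.9 kb) had 3 peaks by the nearest-promoter rule. The promoter peak, at chr2:26503587-26504085, also covered the TSS of Gm35978, a long non-coding RNA gene that starts 105 bp upstream of the Notch1 TSS on the other strand. Its centre was 14 bp from the Notch1 TSS and 91 bp from that of Gm35978, and 146 of the 250 Notch1 promoter bases shown lie in an exon of Gm35978. Accessibility at this site therefore cannot be assigned to 1 of the 2 genes. A second peak lay 715 bp downstream in intron 1, 820 bp from the Gm35978 TSS. The third lay 10760 bp downstream in intron 2 of 33. It held 5 matches to AGGAAG, the core bound by ETS factors such as PU.1 and ERG, and 1.14% of all distal peaks held as many. Its central stretch (chr2:26492969-26493208, plus strand) is shown with these matches in capitals, some of which overlap. This peak and the other intronic peaks printed below were picked for their motif counts after those counts were seen.
Notch1 intron 2: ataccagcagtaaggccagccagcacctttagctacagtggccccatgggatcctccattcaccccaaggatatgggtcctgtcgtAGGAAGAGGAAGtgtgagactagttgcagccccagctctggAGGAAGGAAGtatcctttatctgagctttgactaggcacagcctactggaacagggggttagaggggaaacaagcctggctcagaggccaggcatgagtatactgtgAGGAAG

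Notch2 (chr3:98013538-98150367, plus strand, 136.8 kb) had 24 peaks, more than any other gene examined here. Besides the promoter peak, 6 distal peaks lay upstream, between -34656 and -7977 bp, and 17 lay in introns 1 to 5. Intron 1, of 34.0 kb, held 9 of them between 7142 and 32944 bp from the TSS. Intron 2 held 3, intron 4 held 1 and intron 5 held 4, the last at 72409 bp. Past that position the gene body held only a peak in intron 9, which the list gives to another gene. The densest stretch had 8 peaks in 19.859 kb, and the closest pair of centres were 666 bp apart. GC content of the 23 distal peaks ran from 40.7 to 53.9%, and 5 of them were annotated to a repeat (MLT1M, MIR3, B3, MTC and RSINE1).

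Matches to the extended RBPJ sequence NGTGNGAA, on either strand, were found in 7 of the 23 Notch2 distal peaks. A peak at the 3′ end of intron 1, 32944 bp from the TSS, held 2, and so did a peak in intron 5, at 70713 bp. Of all distal peaks, 26.9% held at least 1 such match and 4.15% held at least 2. The first Notch2 intron 1 peak, at 7142 bp, held 4 matches to TGTGGT, the core bound by RUNX factors, which 0.432% of distal peaks did. The stretches from the first to the last match, or around the matches in the intron 5 peak, are shown along the plus strand with the matches in capitals: chr3:98020514-98020804 for RUNX, and chr3:98046350-98046625 and chr3:98084131-98084370 for RBPJ. A match shows that the letters are present and not that the factor binds.
Notch2 intron 1, RUNX: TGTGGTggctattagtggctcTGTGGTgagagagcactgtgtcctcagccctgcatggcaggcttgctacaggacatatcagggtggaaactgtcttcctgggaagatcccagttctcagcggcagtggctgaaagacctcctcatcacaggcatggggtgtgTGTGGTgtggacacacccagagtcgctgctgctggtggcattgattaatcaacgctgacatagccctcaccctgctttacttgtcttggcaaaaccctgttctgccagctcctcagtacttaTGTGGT
Notch2 intron 1, RBPJ: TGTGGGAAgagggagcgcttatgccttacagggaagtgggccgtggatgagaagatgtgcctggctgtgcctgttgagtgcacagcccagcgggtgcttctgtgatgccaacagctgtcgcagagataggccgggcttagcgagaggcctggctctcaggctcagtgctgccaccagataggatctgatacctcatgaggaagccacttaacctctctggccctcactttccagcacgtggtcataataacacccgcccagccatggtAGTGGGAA
Notch2 intron 5, RBPJ: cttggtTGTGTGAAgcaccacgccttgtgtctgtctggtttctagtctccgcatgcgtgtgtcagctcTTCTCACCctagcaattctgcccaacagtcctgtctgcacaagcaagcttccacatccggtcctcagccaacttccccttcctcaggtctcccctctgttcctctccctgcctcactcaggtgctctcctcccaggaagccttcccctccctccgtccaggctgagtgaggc

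Notch3 (chr17:32120820-32166896, minus strand, 46.1 kb) had 2 peaks, both inside the gene. HOMER placed them 2752 and 23505 bp from the TSS, in intron 2 of 32 and in exon 24 of 33. The exonic peak had a GC content of 61.7%, the highest among distal peaks listed under a receptor. Notch4 (chr17:34564286-34588543, plus strand, 24.3 kb) had 3 peaks, all upstream and intergenic, at -8616, -4232 and -2902 bp. The closest of the 3 held 2 matches to the extended RBPJ sequence, where 4.15% of all distal peaks held at least 2. As many distal peaks as for Notch4 were found for 33.3% of genes.

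Counts by nearest promoter left out peaks that lie inside a receptor gene but closer to the TSS of another. The bodies of the 4 receptors held 30 distal peaks in all, 7 in Notch1, 18 in Notch2, 3 in Notch3 and 2 in Notch4. Of these, 21 were listed under the receptor and 9 under another gene. Notch1 contributed 5 of the 9, all listed under Mir6996, a microRNA gene within Notch1 (chr2:26470059-26470119). They lay in introns 4, 14, 15 and 18 and in exon 34, the last exon, between 20182 and 44881 bp from the Notch1 TSS. Counted by gene body, Notch1 thus had 7 distal peaks where the nearest-promoter rule gave 2. In Notch4 both gene-body peaks, in intron 18 and in exon 30, the last exon, were listed under Gpsm3, whose TSS lies 25511 bp downstream of that of Notch4. The remaining peaks were in Notch2 intron 9 under Adam30, 88128 bp from the Notch2 TSS, and in exon 33 of Notch3, the last exon, under the pseudogene Pdxk-ps. The last-exon peaks of Notch4 and Notch3 had GC contents of 74.3 and 65.5%. The bodies of the other 6 genes held 0 peaks listed under another gene.

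**Figure D3:**
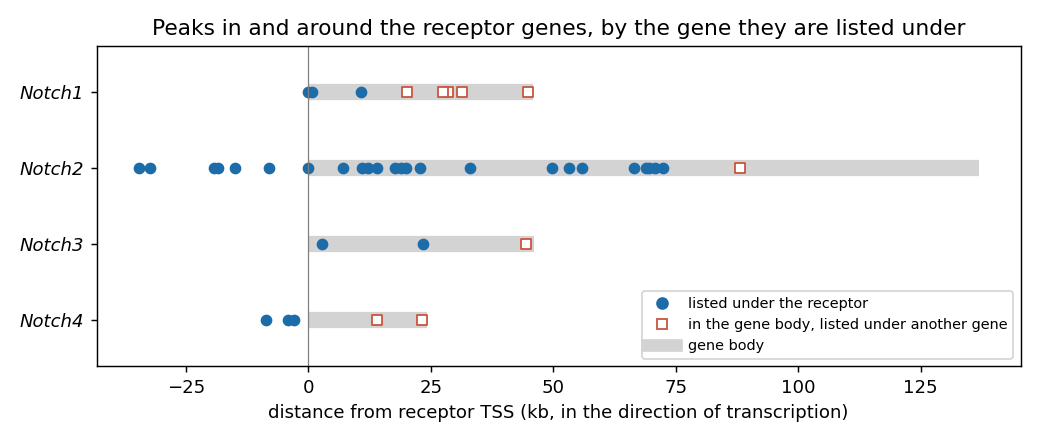
The 4 receptor gene bodies are drawn to scale from the TSS (horizontal axis, distance in kb) as grey bars. Blue points are listed peaks with the receptor as nearest promoter and open squares are peaks in the body listed under another gene. Notch2 peaks lie from 34656 bp upstream to 88128 bp downstream of the TSS, and 5 of the 7 distal peaks in the Notch1 body are listed under another gene.

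By nearest promoter, the ligands carried few peaks, all within 5 kb of a TSS. Dll4 (chr2:119325784-119335666, plus strand, 9.88 kb) had 4 in a row over 2.969 kb, at -3059, -1396, -644 and -90 bp, the last being its promoter peak and the first lying on a CpG island. The TSS of the long non-coding RNA gene Gm14207 lies 413 bp downstream of the Dll4 TSS on the other strand, and 2 peaks that lay 994 and 2280 bp past the 3′ end of Dll4 were listed under Gm14207. The body of Gm14207 (chr2:119321199-119326197) contains all 4 peaks listed under Dll4. Accessibility at these 4 peaks therefore cannot be assigned to 1 of the 2 genes. The Dll4 promoter peak held 2 matches to the CTCF core, the part of the CTCF motif most alike between sites, at 76 and 254 bp upstream. Of all promoter peaks, 10.8% held at least 1, and the share with 2 was not computed. The nearer match is in capitals in the 250 bases upstream of the Dll4 TSS (chr2:119325534-119325783, plus strand), which the promoter peak covers.
Dll4: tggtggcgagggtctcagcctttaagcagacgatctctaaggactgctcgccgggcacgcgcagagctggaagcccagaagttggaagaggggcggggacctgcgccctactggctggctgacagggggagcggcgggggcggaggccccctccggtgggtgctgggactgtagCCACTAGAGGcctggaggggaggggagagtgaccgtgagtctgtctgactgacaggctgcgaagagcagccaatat

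Dll1 (chr17:15367354-15376932, minus strand, 9.58 kb) had a promoter peak at -104 bp and distal peaks at -1254 and -4891 bp, the latter on a CpG island. The promoter peak held 1 extended RBPJ match, 119 bp downstream of the TSS. RefSeq gives Dll1 a further TSS at position 15376932, and the peak at -1254 bp is a promoter peak of that TSS. Jag1 (chr2:137081451-137116520, minus strand, 35.1 kb) had its nearest peak 505 bp upstream, just outside the 500 bp limit, and a peak 2038 bp downstream in intron 2 of 25. With a limit of 1000 bp Jag1 had a promoter peak, so its lack of one rests on the limit, whereas Notch3 and Notch4 still had none. The extended RBPJ sequence, held by 26.9% of all distal peaks, was in none of the 7 distal ligand peaks. Their median GC content, 61.3%, was above that of receptor (49.9%), target (55.2%) and Rbpj (44.1%) distal peaks.

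The targets Hes1 and Dtx1 had equal counts, 1 promoter and 8 distal peaks each, in different arrangements. Hes1 is short (chr16:30065357-30067796, plus strand, 2.44 kb), and 6 of its distal peaks lay beyond its 3′ end, out to 89845 bp from the TSS. The others were at -1173 bp and in exon 4, the last exon, at 1607 bp. The peaks at -1173 and 4987 bp were on CpG islands, with GC contents of 73.5 and 78.4%. The Hes1 promoter peak, centred at -183 bp, held 2 extended RBPJ matches 99 and 75 bp upstream of the TSS, on opposite strands, where 2.16% of all promoter peaks held as many. The Hes1 promoter is known for a pair of RBPJ sites through which Notch acts. Further matches were found in the peaks at 4987 and 63606 bp.

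Dtx1 (chr5:120680203-120711867, minus strand, 31.7 kb) had 7 of its 8 distal peaks in introns 2 and 3, from 4833 to 25826 bp, and 1 at -2803 bp. With the promoter peak at -36 bp, all 9 lay within 28.629 kb. Extended RBPJ matches, held by 26.9% of all distal peaks, were in 3 of the 7 intronic peaks, at 4833, 21025 and 25826 bp. The last held 4 matches to the shorter core TGGGAA, which 0.187% of distal peaks did. The stretch with 3 of them (chr5:120685670-120685969, plus strand) is shown with TGGGAA and its reverse complement in capitals.
Dtx1 intron 3: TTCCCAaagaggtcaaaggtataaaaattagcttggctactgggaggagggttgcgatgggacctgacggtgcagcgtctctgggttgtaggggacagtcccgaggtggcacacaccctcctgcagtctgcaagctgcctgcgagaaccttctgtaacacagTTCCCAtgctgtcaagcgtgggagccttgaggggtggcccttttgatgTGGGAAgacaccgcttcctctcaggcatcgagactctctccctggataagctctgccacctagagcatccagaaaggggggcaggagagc

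Rbpj (chr5:53555779-53657445, plus strand, 101.7 kb) had a promoter peak at -53 bp from 1 of its several TSSs and 15 distal peaks. Upstream of its outermost TSS, 10 of them lay between -140160 and -8804 bp. The others were at -1708, -958, 3809, 10860 and 16925 bp from a TSS of the gene. The peak at -958 bp had a GC content of 71.7%, and the other 14 ran from 38.7 to 53.5%. Extended RBPJ matches, held by 26.9% of all distal peaks, were found in 4 of the 15. The promoter peak held 2 matches to the RBPJ core, and both are in capitals in the 250 bases upstream of a curated TSS (chr5:53590096-53590345, plus strand), most of which the peak covers. Of all promoter peaks, 31.3% held at least 1, and the share with 2 was not computed.
Rbpj: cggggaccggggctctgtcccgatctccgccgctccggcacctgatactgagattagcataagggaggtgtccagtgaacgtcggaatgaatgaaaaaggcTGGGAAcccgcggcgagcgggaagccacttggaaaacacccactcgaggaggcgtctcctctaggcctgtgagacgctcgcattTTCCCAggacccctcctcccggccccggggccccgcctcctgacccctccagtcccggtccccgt

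When every distal peak was instead given to the genes whose regulatory domain it fell in, by the basal plus extension rule of 2 kb upstream and 1 kb downstream extended up to 1 Mb towards the next genes, the order changed. Hes1 had 49 distal peaks, Notch2 34, Rbpj 25, Notch1 17, Dll1 15, Dtx1 12, Notch3 10, Dll4 and Jag1 7 each and Notch4 5. These domains differ in length, from 59.5 kb for Dll4 to 1223 kb for Jag1. Per 100 kb of domain, Notch2 had 14.9 distal peaks, Notch1 12.6, Dtx1 12.1 and Dll4 11.8, and densities as high were found for 3.34, 6.04, 6.87 and 7.57% of genes, in that order. Jag1 had 0.572 per 100 kb, and 75.8% of genes had as many or more. The median was 3.30 over the 20963 genes compared in this way, to which the shares of genes in this paragraph refer. Notch2 stood high by both counts, while the high count of Hes1 went with a domain of 686 kb and a density of 7.14. Rbpj likewise had a domain of 439 kb and a density of 5.70. Densities as high as those of Hes1 and Rbpj were found for 22.5 and 30.8% of genes.

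Motif matches in the 68 distal peaks were compared with all distal peaks of the list, over the whole peak of 499 bp and on both strands. The extended RBPJ sequence was in 17 of 68 (25.0%, with a 95% Wilson interval for counting error alone of 16.2 to 36.4%), beside 26.9% of all distal peaks. It was in 8 of 30 receptor peaks, 5 of 16 target peaks, 4 of 15 Rbpj peaks and 0 of 7 ligand peaks. The RBPJ core TGGGAA, which is part of some matches of the extended sequence, was in 28 (41.2%, against 38.2%). The E-box CAGCTG was in 29 (42.6%, interval 31.6 to 54.5%, against 30.4%). RUNX TGTGGT was in 21 (30.9%, interval 21.2 to 42.6%, against 42.5%) and ETS AGGAAG in 41 (60.3%, interval 48.4 to 71.1%, against 65%). AGATAA, bound by GATA factors, was in 12 (17.6%, interval 10.4 to 28.4%, against 26.9%). The CTCF core was in 5 (7.35%, interval 3.18 to 16.1%, against 16.5%), with 0 of them among the 23 peaks of Notch2. The RUNX, ETS and GATA intervals thus include the share of all distal peaks. Peaks of 1 gene share a locus and Notch2 gives 23 of the 68, so these shares are a description and no test of the pathway. Of the 7 promoter peaks, 2 held the extended RBPJ sequence, those of Hes1 and Dll1, beside 19% of all promoter peaks. The CTCF core was in 3 (42.9%), those of Notch1, Dll4 and Hes1, beside 10.8% of all promoter peaks. The ETS core was in 3 (42.9%), beside 48.1%. The RUNX, GATA and E-box sequences were in 0 of the 7, beside 19.6, 8.66 and 26.1% of all promoter peaks. In all, 6 of the 10 genes had a peak with an extended RBPJ match: Notch2, Notch4, Dll1, Hes1, Dtx1 and Rbpj. The share of all genes with such a peak was not computed. A gene with more peaks has more places for a match, so this count says little about the pathway.

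**Figure D4:**
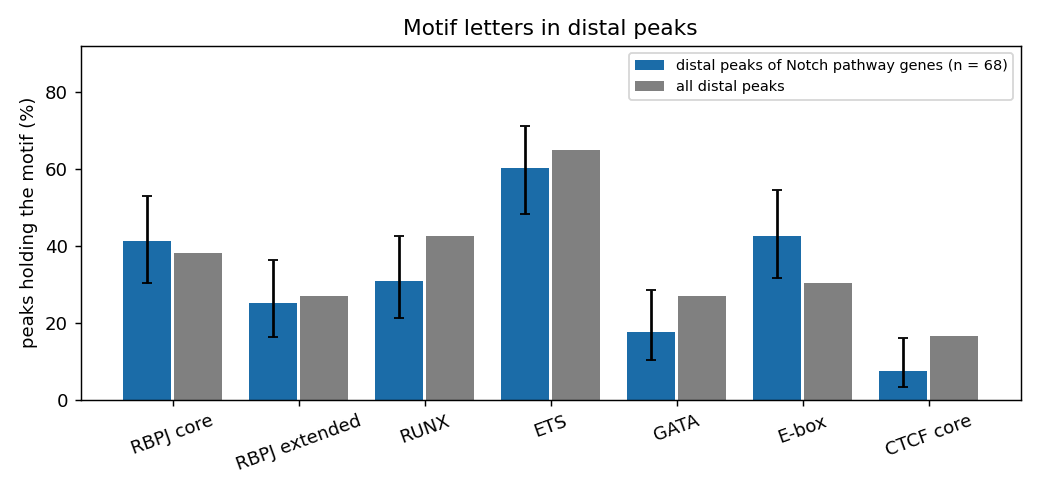
Paired bars show the percentage of distal peaks (vertical axis) that hold each of 7 motifs, for the 68 distal peaks of Notch pathway genes (blue, with 95% Wilson intervals for counting error) and for all distal peaks (grey). The RBPJ extended shares are 25.0 and 26.9%, and the E-box is higher in the Notch pathway peaks (42.6 against 30.4%). The RUNX, GATA and CTCF cores are lower, but the RUNX and GATA intervals include the share of all distal peaks.

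HOMER put 33 of the 68 distal peaks in introns (48.5%) and 29 between genes (42.6%), where all distal peaks of the list had 48% and 44.6%. On repeats there were 9 of 68 (13.2%), against 17.9%, and on CpG islands 4 (5.88%), against 1.98%. The 4 were 2 peaks of Hes1 and 1 each of Dll1 and Dll4, and these differences were not tested. Median GC content was 50.9% in distal and 64.5% in promoter peaks, where the whole list had 47.7 and 63.3%.

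Of 43 other genes of the pathway, 34 (79.1%) had a promoter peak, beside 52.9% of protein-coding genes. They had 175 distal peaks, with a median of 2 and a range from 0 to 19. Among receptor cleavage genes, which include the ADAM proteases and the subunits of gamma-secretase, 8 of 9 had a promoter peak and the median distal count was 1. Coactivators and corepressors likewise had promoter peaks in 7 of 8 genes but a median of 6.5 distal peaks. Promoter peaks were found for 9 of 11 genes of ubiquitin and trafficking, 4 of 5 of receptor glycosylation, 4 of 6 further targets and 2 of 4 further ligands. The most distal peaks were at Maml3 (19), a Mastermind coactivator, Fbxw7 (17), which marks the intracellular domain for degradation, Maml2 (14), Dlk1 (12), an atypical ligand, and Psen2 (10), a catalytic subunit of gamma-secretase.

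The 9 without a promoter peak were Dll3, Dlk1, Hes5, Ptcra, Maml2, Psenen, Rfng, Neurl1a and Dtx3. For 4 of them a peak lay close to the RefSeq TSS but was listed under a neighbour: for Psenen at 64 bp under U2af1l4, for Maml2 at 213 bp under Ccdc82, for Dtx3 at 254 bp under F420014N23Rik and for Rfng at 256 bp under Gps1. The peaks at Psenen, Dtx3 and Rfng were promoter peaks of those neighbours. The peak at Maml2 was listed as a distal peak 51215 bp from the Ccdc82 TSS, so no promoter of Ccdc82 is shared there. Dll3 and Hes5 had a peak just past the 500 bp limit, at 554 and 537 bp. Dlk1 and Neurl1a had none nearer than 6190 and 4109 bp to the RefSeq Select TSS, and the peak of Neurl1a closest to any of its TSSs was at 3848 bp. Ptcra, which encodes the pre-T cell receptor alpha chain of thymocytes, had no listed peak, and the nearest to its TSS was 9072 bp away at another gene. Notch3, Notch4, Dlk1, Neurl1a and Ptcra thus had no listed peak of any gene within 2 kb of the TSS, unlike the genes whose nearby peak was listed under a neighbour.

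**Figure D5:**
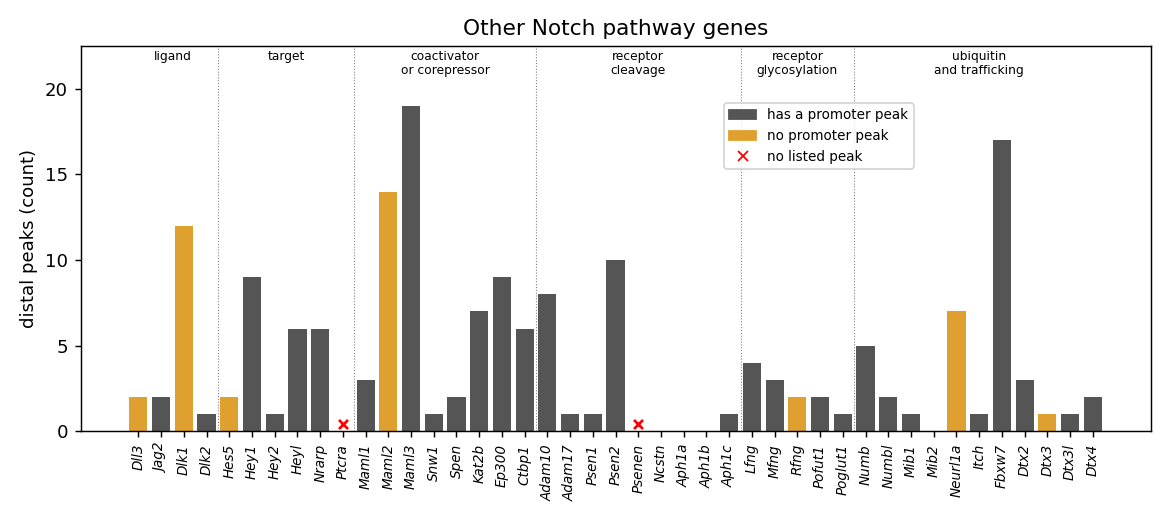
Bars show distal peaks (vertical axis, count) for 43 other Notch pathway genes grouped by role; grey bars are genes with a promoter peak, orange bars genes without, and red crosses mark the 2 genes with no listed peak, Ptcra and Psenen. Maml3, Fbxw7 and Maml2 have the most, with 19, 17 and 14, and receptor cleavage genes mostly have 0 or 1.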

How the data were processed

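ATAC-seq peaks of 12 samples, 2 replicates of 6 cell types, were called by the authors on mm10 in the ATAC-seq pipeline of ENCODE. They joined the reproducible peak lists of the cell types, kept non-overlapping peaks with chromVAR and annotated them with HOMER (version 4.10.2 in the submitters' processing notes). Every listed peak was 499 bp wide. The deposited list gives position, annotation and distance to the TSS in bp, and the peak score deposited by the authors was 0 throughout, so it was not used. With no counts, depth per sample is unknown.

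The 10 genes, the 43 other pathway genes and the 7 motifs were chosen with earlier results of these data known, and a further pathway gene is not reported here. Peaks were matched by the HOMER gene name. Promoter peaks were those centred no more than 500 bp from a TSS. Gene bodies, TSSs, promoter windows and sequence came from RefSeq release 108 of GRCm38.p6; 9 of the 10 genes had a promoter window, and Hes1 did not. The whole list or all 21774 protein-coding RefSeq genes served as background, except that densities by regulatory domain were compared with 20963 genes. Motifs were searched as exact letters on both strands. Named genes were the 10, other pathway genes without a promoter peak or among the 5 with the most distal peaks, and neighbours sharing a peak or gene body. Alternatives concerned the promoter limit, the gene given to a peak, the distal limit and the motif. The counting and the search were tested on simulated data. Python 3.11.15, numpy 2.4.6, pandas 2.3.3 and matplotlib 3.10.9 were used.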

Additional observations from a re-analysis of the deposited data

How the results depend on the processing

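Of 61 values under alternatives, 44 stayed within 1.5 times the reported count and 17 did not. With the promoter limit at 1000 bp, promoter peaks rose from 7 to 11 for all 10 genes, from 2 to 4 for ligands and from 1 to 2 for Rbpj, and a window from 1000 bp upstream to 100 bp downstream gave 4 and 2 for the last groups. A limit of 100 bp gave 1 promoter peak for ligands and 1 for targets. Distal counts depended most on how a peak was given to a gene. By gene body they were 44 for all 10 genes, 1 for ligands, 8 for targets and 5 for Rbpj, against 68, 7, 16 and 15 by nearest promoter, while receptors had 30 by either rule. By basal plus extension they were 181, 29, 61 and 25, with 66 for receptors. Beyond 10 kb, 44 of the 68 were counted. Genes with a promoter peak numbered 5 to 8 of 10 over the alternatives, and genes with an extended RBPJ match 5 in the central 200 bp of peaks and 7 with the core alone. A stricter peak score could not be tried, because the score is 0 in every peak. No paired analysis was possible because the list has no values per sample, and no replicate could be left out for the same reason. Counts are of listed peaks only, and depth limits which peaks were called to an unknown extent.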
